A study of Mus musculus with 8 samples.

Results

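DNA break peaks on the upstream side of transcription start sites (TSSs) were examined in mouse embryonic stem (ES) cells that lack the chromatin remodeler Chd1. A peak was taken when its summit, the position of highest read coverage, lay more than 100 bp and at most 1000 bp upstream of the nearest annotated TSS, with distance signed by the strand of that transcript. Peaks whose summit was within 1000 bp of TSSs of protein-coding genes on both strands were left out, since upstream of one gene is then downstream of the other. By this rule 550 of the 5671 break peaks of Chd1 KO cells (9.70%, Wilson 95% interval 8.96% to 10.5%) were upstream peaks. They stand beside 1409 core peaks with a summit within 100 bp of the TSS, 1450 downstream peaks more than 100 bp and at most 1000 bp past it, and 1998 distal peaks over 1000 bp from every TSS. A further 264 peaks near a TSS were left out by the rule on both strands.

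DSB-seq was carried out on 2 genotypes of established ES cell lines, with 2 replicates each. Chd1 KO cells are Chd1Δ/Δ and have no intact copy of the gene. Control cells are Chd1fl/Δ, so they carry 1 deleted allele as well and keep the other as a floxed allele. In fixed nuclei, terminal transferase adds biotinylated nucleotides to the ends of broken DNA, and labeled fragments are pulled down on streptavidin and sequenced. The authors combined the replicates of each genotype before they called peaks, so every value below comes from 1 list per genotype and has no replicate error. Peaks are not replicates of a genotype, no test was run across them, and the 95% intervals cover counting error only.

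Chromodomains in Chd1 recognize the methyl mark that histone H3 carries at active promoters, and its motor domain uses ATP to shift and space nucleosomes near the start of transcribed genes. Most mouse promoters are CpG islands, which reach to both sides of the TSS, and transcription often starts in both directions from them. The upstream side holds binding sites for factors such as Sp1, which recognizes the GC box. Guanine-rich strands with several runs of G can fold into G-quadruplexes, and alternating C and G can take up the left-handed Z form of DNA.

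The DNA at some summits is given first, as examples picked by height, run length or motif that do not stand for all upstream peaks. Each sequence below covers 90 bp to either side of a summit in the mm9 build, is written 5′ to 3′ on the strand of the nearest gene so that the TSS lies to the right, and has its longest stretch of at least 12 bases without A or T, called a GC run here, in capitals. The first group has 3 of the 10 upstream peaks with the highest fold enrichment. This is the ratio of summit reads to the background around them in the pooled reads of the genotype, after the same small constant was added to both.
Gm9008, chr6:76447980-76448160, minus strand: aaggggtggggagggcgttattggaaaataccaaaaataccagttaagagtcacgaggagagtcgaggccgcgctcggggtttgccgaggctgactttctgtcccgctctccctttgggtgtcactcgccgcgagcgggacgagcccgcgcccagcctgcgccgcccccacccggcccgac
Smo, chr6:29685491-29685671, plus strand: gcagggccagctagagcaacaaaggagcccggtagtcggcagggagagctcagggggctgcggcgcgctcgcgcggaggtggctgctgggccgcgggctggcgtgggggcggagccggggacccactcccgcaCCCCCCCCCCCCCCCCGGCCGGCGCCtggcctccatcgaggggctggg
Pparg, chr6:115310868-115311048, plus strand: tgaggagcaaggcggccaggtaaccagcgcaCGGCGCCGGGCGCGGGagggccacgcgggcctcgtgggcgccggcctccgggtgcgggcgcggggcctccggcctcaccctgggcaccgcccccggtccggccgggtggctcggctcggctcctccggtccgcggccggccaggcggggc
The second group has long GC runs, of 49 bases at Zbtb2, 45 at Ccne2 and 44 at Pde7a. These 3 runs hold more G than C on the strand of the gene, but over all 297 upstream peaks with a run of at least 20 bp, 146 longest runs held more G, 139 more C and 12 as many of both.
Zbtb2, chr10:5958816-5958996, plus strand: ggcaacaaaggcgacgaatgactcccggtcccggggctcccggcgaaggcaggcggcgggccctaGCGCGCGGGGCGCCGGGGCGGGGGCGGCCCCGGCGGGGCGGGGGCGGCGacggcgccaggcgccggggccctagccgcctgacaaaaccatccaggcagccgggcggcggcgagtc
Ccne2, chr4:11117963-11118143, plus strand: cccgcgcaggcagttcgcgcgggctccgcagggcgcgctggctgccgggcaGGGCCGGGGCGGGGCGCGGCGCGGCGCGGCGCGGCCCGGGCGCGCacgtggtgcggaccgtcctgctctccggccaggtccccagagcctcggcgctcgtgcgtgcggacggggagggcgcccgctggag
Pde7a, chr3:19211420-19211600, minus strand: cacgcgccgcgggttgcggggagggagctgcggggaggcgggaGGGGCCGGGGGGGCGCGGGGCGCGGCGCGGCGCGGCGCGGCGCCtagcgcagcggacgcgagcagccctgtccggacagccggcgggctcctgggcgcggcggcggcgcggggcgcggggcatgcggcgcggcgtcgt
The third group has other kinds of sequence. Cux1 and Smurf2 carry a G-quadruplex motif on 1 strand, the strand of the gene for Cux1 and the opposite strand for Smurf2. Gm12346 has alternating C and G next to a CA repeat, and Gm336 has neither a GC run nor a G-quadruplex motif.
Cux1, chr5:136779159-136779339, minus strand: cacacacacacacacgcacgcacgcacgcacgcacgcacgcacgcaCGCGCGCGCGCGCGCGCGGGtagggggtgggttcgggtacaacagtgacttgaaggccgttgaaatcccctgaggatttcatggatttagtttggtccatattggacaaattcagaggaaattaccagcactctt
Smurf2, chr11:106782050-106782230, minus strand: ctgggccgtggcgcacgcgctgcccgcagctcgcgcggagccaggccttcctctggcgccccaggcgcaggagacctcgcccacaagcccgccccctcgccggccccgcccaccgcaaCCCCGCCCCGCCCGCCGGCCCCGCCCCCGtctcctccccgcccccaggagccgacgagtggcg
Gm12346, chr11:77106319-77106499, plus strand: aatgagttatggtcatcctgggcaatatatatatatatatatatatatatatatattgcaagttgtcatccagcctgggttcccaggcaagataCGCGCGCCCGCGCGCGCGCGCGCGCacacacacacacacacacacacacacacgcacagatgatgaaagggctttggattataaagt
Gm336, chr19:11166774-11166954, minus strand: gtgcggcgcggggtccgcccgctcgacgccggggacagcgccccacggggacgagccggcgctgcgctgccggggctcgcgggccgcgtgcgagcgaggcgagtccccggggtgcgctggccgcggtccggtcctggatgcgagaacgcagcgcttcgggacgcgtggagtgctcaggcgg

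The summits lay close to the TSS. Their median distance was 207 bp (95% interval 189 to 221 bp), with quartiles at 138 and 365 bp and a range of 101 to 989 bp. Between 100 and 200 bp lay 264 of them (48.0%), and the next 100 bp held 111. Numbers fell to 56, 37 and 22 in the following bins, and the bins beyond 600 bp held between 10 and 19 each. On the other side of the TSS the decline was slower, with 472 of 1450 downstream peaks (32.6%) in the first bin, 364 in the second and 257 in the third. Within the limits of the rule, the upstream peaks were therefore fewer and nearer to the TSS.

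**Figure D1:**
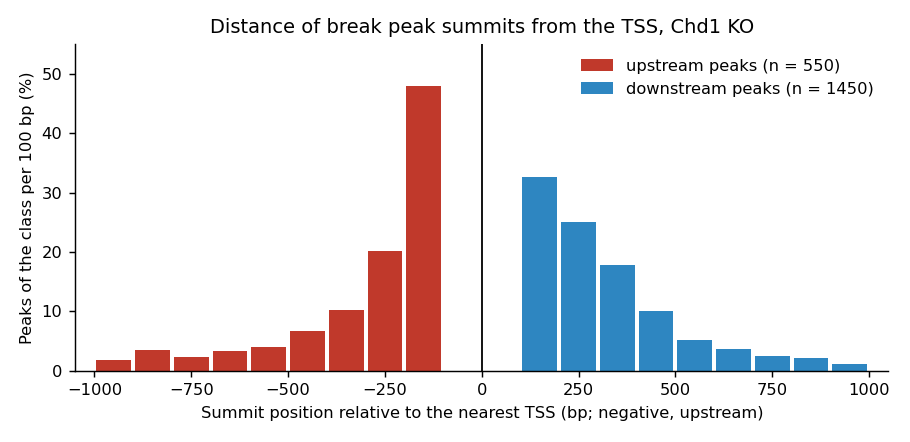
Share of upstream peaks (red, n = 550) and downstream peaks (blue, n = 1450) per 100 bp of distance between summit and nearest TSS, in Chd1 KO cells; the 100 bp next to the TSS on either side belong to core peaks and are not drawn. The first upstream bin holds 48.0% of its class and the first downstream bin 32.6%.

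Just inside and just outside the limits of the rule, fold enrichments lay in the same range. Summits at 101 bp were found for 9 peaks with fold enrichments of 3.62 to 5.25, among them Stim1 with 5.22, Arhgef4 with 4.84 and Dact2 with 5.15. Summits at 100 bp, counted as core peaks, were found for 11 peaks with 3.57 to 5.53, among them Tbl1x with 3.82, Slc7a14 with 5.53 and Ssr1 with 4.39. At the far limit, the peaks at Car15, Lbx1 and 9930021J03Rik (989, 966 and 942 bp) had fold enrichments of 5.88, 4.12 and 3.67, and those just past it at Ldoc1l, Abhd12b and Lpar3 (1011, 1015 and 1026 bp) had 5.50, 3.82 and 5.06.

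No upstream peak overlapped a peak of control cells. Control cells had 54 peaks in all, and 0 of 550 upstream peaks shared a base with one of them, which allows a share of up to 0.545%. The nearest control summit to any upstream peak was 271 kb away, at the peak of 1700071K01Rik, and 49 upstream peaks lay on chromosomes without a control peak. The same held for the other peaks near a TSS, with 0 of 1409 core peaks and 0 of 1450 downstream peaks, which allow up to 0.213% and 0.207%. Of the distal peaks, 49 of 1998 (2.45%, interval 1.86% to 3.23%) overlapped a control peak. The lowest local background was 3.18 reads in Chd1 KO and 2.95 reads in control, so the pooled reads of both genotypes had similar depth. The weakest control peak had a −log10 p-value of 7.13 and the weakest Chd1 KO peak one of 4.88, and 491 of the upstream peaks were at least as strong as the weakest control peak. DSB-seq signal below the cutoff of the peak caller was not analyzed here.

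Upstream peaks had about the height of the peaks at the TSS itself. Their median fold enrichment was 4.54 (interval 4.45 to 4.60), beside 4.54 (4.48 to 4.56) for core peaks, 4.49 (4.44 to 4.54) for downstream peaks and 4.78 (4.76 to 4.84) for distal peaks. The interval of the upstream peaks lay below that of the distal peaks and overlapped the other intervals. Values ranged from 2.91 to 8.13, with 130 peaks under 4, 266 from 4 to 5 and 20 at 6 or more. The number of reads at the summit, recovered from fold enrichment and p-value, was 14 to 37 with a median of 22. Peaks were 200 to 1082 bp wide, with a median of 321 bp.

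The highest upstream peak was at Gm9008, a gene known only by its prediction number, with a fold enrichment of 8.13 from 33 reads over a background of 3.18, 292 bp upstream of the TSS (peak chr6:76447880-76448178). The peak at Smo, which encodes the membrane protein that passes on the Hedgehog signal, had the most reads of all, 37, and a fold enrichment of 8.09, with its summit 113 bp from the TSS (chr6:29685448-29685857). Gm5582, a pseudogene, followed with 7.89 at 629 bp. Next came Gypc with 7.17 at 413 bp, which encodes glycophorin C of the red cell membrane, and Pgm2l1 with 7.05 at 131 bp, which encodes a glucose 1,6-bisphosphate synthase. The pseudogene Gm12346 had 6.93 at 537 bp. Pparg, the nuclear receptor that drives fat cell formation, had 6.92 from 30 reads at 281 bp. Pip5k1b, a lipid kinase that makes phosphatidylinositol 4,5-bisphosphate, had 6.54 at 317 bp. Tet2, which oxidizes 5-methylcytosine, had 6.50 from 32 reads at 187 bp, and Ccdc9 had 6.47 from 36 reads at 644 bp. These 10 peaks lay anywhere from 113 to 644 bp upstream, and GC content within 100 bp of their summits went from 43.8% at Gm12346 to 84.1% at Tet2.

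After Smo and Ccdc9, the most reads were found at Nol3 with 36, and at Smurf2, Slc35e1 and Elf2 with 35 each. Nol3 encodes a repressor of apoptosis and Smurf2 a ubiquitin ligase of the Tgf-beta pathway. With local backgrounds of 6.12 reads at Nol3, 4.78 at Smurf2, 5.72 at Slc35e1 and 5.74 at Elf2, fold enrichments were 5.20, 6.23, 5.36 and 5.34. The widest peaks were at Gm6658 with 1082 bp, at Satb1, a chromatin organizer of T cells, with 981 bp, at Paip1, which binds the poly(A)-binding protein, with 913 bp, at Pan3, a subunit of a deadenylase, with 912 bp, and at Dlgap3, a postsynaptic scaffold, with 911 bp. Their fold enrichments, between 4.01 at Paip1 and 5.02 at Satb1, were near the median, so width and height did not go together in these 5.

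Height changed little with distance. The 264 peaks up to 200 bp from the TSS had a median fold enrichment of 4.62 (interval 4.47 to 4.78), the 204 peaks from 200 to 500 bp had 4.46 (4.31 to 4.58), and the 82 peaks beyond 500 bp had 4.53 (4.34 to 4.67). These intervals overlap. GC content at the summit was lower in the farthest class, at 74.1% (71.1% to 76.1%) against 78.4% (77.1% to 78.6%) in the nearest. Runs of at least 20 bp were found in 56.8%, 51.0% and 52.4% of the peaks of the 3 classes, with overlapping intervals. G-quadruplex motifs were found in 66.3%, 58.8% and 76.8%, and the interval of the farthest class (66.6% to 84.6%) lay above that of the middle class (52.0% to 65.4%).

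**Figure D2:**
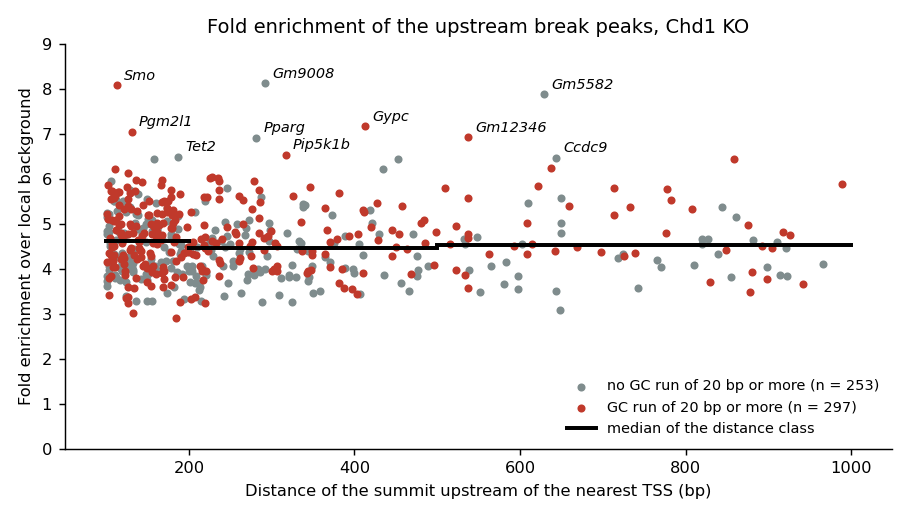
Fold enrichment of each of the 550 upstream peaks against the distance of its summit from the nearest TSS in bp, in Chd1 KO cells, with peaks that have a GC run of at least 20 bp in red (n = 297), the others in gray (n = 253), the median of each distance class as a black line and the 10 highest peaks labeled by nearest gene. The medians of the 3 distance classes are 4.62, 4.46 and 4.53.

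The summits of upstream peaks sat in DNA of about the same median GC content as those of the other promoter peaks, with more sites of lower GC content. Over the bases within 100 bp of the summit, the median GC content was 77.6% (interval 77.1% to 78.1%), beside 78.1% for core peaks, 77.6% for downstream peaks and 55.7% for distal peaks. A GC content of at least 60% was found at 512 of 550 upstream peaks (93.1%), against 99.3% of core peaks (difference -6.20 percentage points, Newcombe 95% interval -8.65 to -4.27) and 98.4% of downstream peaks (difference -5.32, interval -7.81 to -3.33). The 38 upstream peaks under 60% GC lay farther out, with a median distance of 408 bp, and had a median fold enrichment of 4.69 (interval 4.30 to 5.02). Of these, 22 had a GC run of at least 20 bp and 11 a CA repeat. The frequency of CpG relative to the product of C and G, taken within 150 bp, had a median of 0.932 at upstream summits, 0.945 at core and 0.555 at distal summits. The stated peak calling options name no input library, and any part of GC-dependent capture or amplification in these values was not tested.

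Around the summits, GC content was not symmetric. In 20-bp bins oriented with the gene, the mean GC content of upstream peaks rose to 78.3% in a bin centred 50 bp from the summit toward the TSS. Core peaks reached 79.9% in a bin 10 bp before the summit and downstream peaks 79.1% in a bin 10 bp after it. GC runs leaned the same way. Of 297 upstream peaks with a run of at least 20 bp, 183 (61.6%) had the center of the run on the TSS side of the summit, with a median offset of 23.5 bp. In downstream peaks the TSS side held 356 of 645 runs (55.2%, difference 6.42 points, interval from -0.381 upward, so that it includes 0), and in core peaks 367 of 705 (52.1%, difference 9.56 points, interval 2.83 to 16.1).

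**Figure D3:**
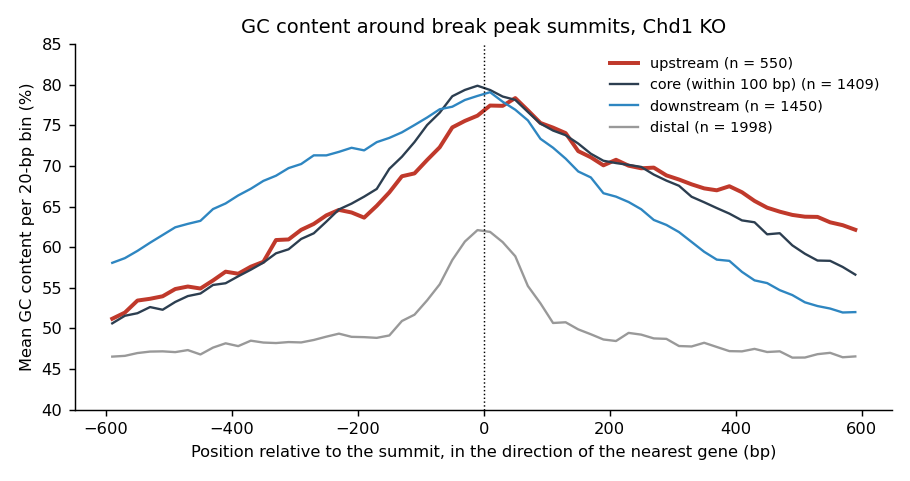
Mean GC content in 20-bp bins against position relative to the summit in bp, positive in the direction of the nearest gene, for upstream (red, n = 550), core (black, n = 1409), downstream (blue, n = 1450) and distal peaks (gray, n = 1998) in Chd1 KO cells. The curve of upstream peaks is highest, at 78.3%, 50 bp to the TSS side of the summit, and stays higher on that side than on the other.

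GC content at the summit was set beside other places of the same promoter for the 286 upstream peaks more than 200 bp from the TSS. There, windows of 100 bp to either side of summit and TSS do not overlap. These promoters were taken because a peak lay at the upstream summit, and summits of all promoter classes were GC-rich. The order of the places can therefore follow from that choice, and it does not show the most GC-rich place of the promoter. Median GC content was 77.1% (interval 76.1% to 77.6%) at the summit, 71.1% (69.2% to 72.6%) at the TSS and 61.2% (59.2% to 64.7%) at the mirror position, as far downstream of the TSS as the summit was upstream. The summit was richer than the TSS in 186 of 286 promoters and poorer in 94, and richer than the mirror position in 240 and poorer in 43. A run of at least 20 bp lay fully within the window at 116 summits (40.6%, interval 35.0% to 46.3%), at 62 TSSs (21.7%, 17.3% to 26.8%) and at 22 mirror positions (7.69%, 5.13% to 11.4%).

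Long GC runs were more frequent at upstream than at downstream peaks, and their share differed from those of core and distal peaks by less than the counting error. A run of at least 12 bp centered within 150 bp of the summit was found at 534 of 550 upstream peaks (97.1%), and one of at least 20 bp at 297 (54.0%, interval 49.8% to 58.1%). Core peaks had a run of at least 20 bp in 50.2% (difference 3.75 points, interval -1.17 to 8.63), and downstream peaks in 44.5% (difference 9.52 points, interval 4.61 to 14.4). Distal peaks had one in 57.6% (difference -3.56 points, interval -8.26 to 1.11). Runs of at least 28 bp were found at 17.3% of upstream and 11.1% of downstream peaks (difference 6.17 points, interval 2.77 to 9.88), and at 17.1% of distal peaks. The median length of the 297 runs was 24 bp, and 138 of them were centered within 50 bp of the summit. Upstream peaks with a run of at least 20 bp had a median fold enrichment of 4.66 (interval 4.57 to 4.78) and those without had 4.33 (4.17 to 4.49). The 16 peaks with no run of 12 bp, among them Gm336 and Gm9008, had a median of 3.98 (3.83 to 4.45).

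G-quadruplex motifs, taken as 4 runs of at least 3 G with loops of 1 to 7 bases on either strand, were found within 150 bp of 358 of 550 upstream summits (65.1%, interval 61.0% to 69.0%). Downstream peaks had one in 53.8% (difference 11.3 points, interval 6.49 to 15.9), distal peaks in 56.3% (difference 8.83, interval 4.22 to 13.3) and core peaks in 61.2% (difference 3.84, interval -0.945 to 8.49). The excess over downstream peaks was on the strand opposite to the gene. A motif on that strand alone was found at 147 upstream peaks (26.7%), against 16.4% of downstream peaks (difference 10.3 points, interval 6.26 to 14.6) and 21.2% of core peaks (difference 5.51, interval 1.34 to 9.87). A motif on the strand of the gene alone was found at 162 upstream peaks (29.5%) and 30.0% of downstream peaks (difference -0.545, interval -4.92 to 4.02). Among peaks with the motif on 1 strand, it was on the strand of the gene in 52.4% of upstream, 59.7% of core and 64.6% of downstream peaks. The difference from downstream peaks was -12.2 points (interval -18.8 to -5.58) and that from core peaks -7.28 points (interval -13.8 to -0.715), whereas distal peaks had 50.7% (difference 1.73, interval -4.58 to 7.99). The balance of bases moved with it, with more G than C on the strand of the gene within 150 bp of 303 upstream summits (55.1%) and 65.7% of downstream summits (difference -10.6 points, interval -15.4 to -5.76).

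Repeats made up a small share of upstream peaks. At least 4 CG units in a row, as at Gm12346 and Cux1, were found at 80 upstream peaks (14.5%). The shares were 10.0% of downstream peaks (difference 4.55 points, interval 1.38 to 8.05), 12.1% of core peaks (difference 2.41, interval -0.841 to 5.98) and 30.7% of distal peaks. Of these 80 peaks, 68 were at protein-coding genes, and their median fold enrichment was 4.58. Repeats of at least 8 CA units were found at 12 upstream peaks (2.18%) and 27.1% of distal peaks (difference -24.9 points, interval -27.1 to -22.4). Among the other peaks near a TSS they were rarer, with 0.284% of core peaks (difference 1.90, interval 0.868 to 3.50) and 0.759% of downstream peaks (difference 1.42, interval 0.320 to 3.05). The 12 had a median fold enrichment of 5.55 (interval 4.67 to 6.44) and a median GC content of 52.0%, and 9 of them also had the alternating C and G.

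Which upstream stretches of the genome held such a peak was counted over 19787 protein-coding genes, taking the stretch from 100 to 1000 bp upstream of the outermost TSS and leaving out genes with a divergent protein-coding neighbor. A summit of an upstream peak was found in 332 of these stretches (1.68%). Below 45% GC the share was 0.0697% (6 of 8605 stretches), from 50% to 55% it was 1.41%, from 60% to 65% it was 15.9% (interval 12.8% to 19.6%), and at 65% or more it was 34.9% (101 of 289, interval 29.7% to 40.6%). By the longest GC run, it was 0.124% (20 of 16178) without a run of 12 bp, 2.95% at 12 to 15 bp, 9.88% at 16 to 19 bp, 20.1% at 20 to 23 bp, 25.8% at 24 to 27 bp and 40.6% (56 of 138, interval 32.7% to 48.9%) at 28 bp or more.

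GC content and run length both went with the presence of a peak within classes of the other. The classes of 65% GC or more and of runs of 20 bp or more had no upper limit. GC content was taken over the whole stretch, and differences that remained within a class were not tested. Among stretches of 60% to 65% GC, 1 of 61 without a run held a peak, 14.1% (interval 10.4% to 18.7%) of those with a longest run of 12 to 19 bp did, and 28.4% (20.8% to 37.5%) of those with a run of 20 bp or more. At 65% GC or more, the latter shares were 21.4% (interval 15.2% to 29.2%) and 47.4% (39.7% to 55.3%). Even among stretches of 50% to 55% GC, 15.7% (19 of 121) of those with a run of 20 bp or more held a peak, against 0.321% (8 of 2489) of those without a run. Of the 154 stretches with at least 65% GC and a run of 20 bp or more, 73 held a peak, and the rest had none above the cutoff of the peak caller. G-quadruplex motifs showed the same direction, with a peak in 5.10% of 4844 stretches that held a motif and in 0.569% of 14943 that did not.

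**Figure D4:**
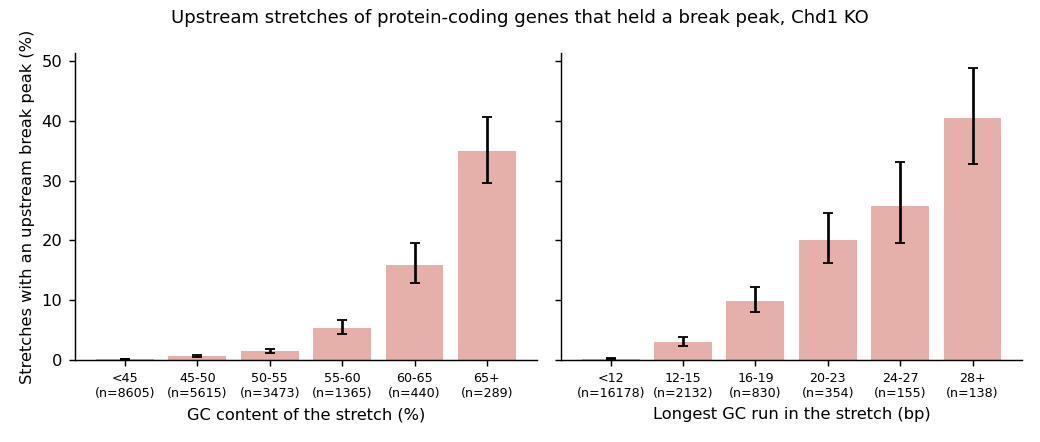
Share of upstream stretches of protein-coding genes that held the summit of an upstream break peak in Chd1 KO cells, by the GC content of the stretch in % (left) and by its longest GC run in bp (right), with Wilson 95% intervals as error bars and the number of stretches under each bar. The share goes from 0.0697% below 45% GC to 34.9% at 65% or more, and from 0.124% without a run of 12 bp to 40.6% with one of 28 bp or more.

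Core promoter motifs were compared between the sequence within 150 bp of upstream summits and windows of the same length centered 200 bp upstream of the outermost TSS of all 22373 protein-coding genes with such a window, on both strands. The GC box, GGGCGG, was in 89.1% of upstream peaks and in 33.2% of all windows. With both restricted to a GC content of at least 60% within 150 bp, the shares were 91.6% (467 of 510) and 77.6% (3963 of 5108), with medians of 3 and 1 boxes. GC content was not equal in these restricted sets, with medians of 77.1% in peaks and 65.8% in windows, and neither was the CpG ratio, with 0.940 and 0.790. The windows also included genes with a divergent protein-coding neighbor, whereas peaks between such neighbors had been left out by the rule. Position differed as well, since windows had 1 fixed distance from the outermost TSS, whereas summits lay 101 to 989 bp from the nearest TSS. For 167 peaks the summit lay inside the gene itself. The part of these differences in the contrasts of this paragraph was not tested. The CCAAT box, which binds NF-Y, went the other way, with 18.0% of upstream peaks and 37.8% of windows, or 16.5% (interval 13.5% to 19.9%) and 31.3% (30.1% to 32.6%) at GC of at least 60%. TATAAA was in 2.36% of peaks and 13.8% of windows, but in 1.76% and 1.64% at GC of at least 60%, so this contrast was absent among GC-rich windows. The ETS sequence CCGGAAG was in 5.49% of GC-rich peaks (interval 3.83% to 7.82%) and 11.3% of GC-rich windows (10.4% to 12.2%). The E-box CACGTG was in 8.82% and 9.77%, with overlapping intervals, and the octamer ATGCAAAT in 3 peaks in all. Runs of at least 20 bp that lay fully within the window were in 52.5% of GC-rich peaks and 14.4% of GC-rich windows, and G-quadruplex motifs in 64.9% and 41.1%. GC boxes lie inside many of the GC runs, so these shares are not independent.

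Most upstream peaks lay outside genes. Of the 550 summits, 329 (59.8%) were intergenic, 54 (9.82%) were inside another gene, and 167 (30.4%) were inside the gene itself, in 104 cases in an intron and in 63 in an exon, because the nearest TSS was that of a transcript starting farther in. The median fold enrichment was 4.50 (interval 4.39 to 4.58) for intergenic summits, 4.58 (4.41 to 4.68) inside the gene itself and 4.65 (4.30 to 4.95) inside another gene. The nearest gene was protein-coding for 493 (89.6%) and a lincRNA for 24, a pseudogene for 15, a miRNA for 8, a processed transcript for 5, an snRNA for 4 and a misc_RNA for 1. The 15 peaks at pseudogenes had a lower GC content, at a median of 61.2% (interval 52.2% to 75.1%), and 4 of the 12 CA repeats. No TSS on the opposite strand lay within 1000 bp of 500 summits (90.9%). Autosomes had between 16 and 45 upstream peaks each and the X chromosome had 2. These counts were not set against the number of TSSs or of all peaks per chromosome.

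The peaks themselves reached across the TSS in 210 of 550 cases (38.2%). Those 210 were wider, with a median of 423 bp against 272 bp, and higher, with a median fold enrichment of 4.72 (interval 4.59 to 4.83) against 4.42 (4.34 to 4.54) for the 340 that ended before it. Their summits were also nearer to the TSS, at a median of 138.5 bp against 289 bp. Another Chd1 KO peak within 1000 bp of a TSS of the same gene was present for 129 upstream peaks (23.5%, interval 20.1% to 27.2%), and included a downstream peak for 73 and a core peak for 34. For 22 it was an upstream peak only. The median distance between both summits was 623 bp. The upstream peak was the higher one in 61 of the 129 (47.3%, interval 38.9% to 55.9%). Where upstream peaks were partners of each other, the higher and the lower both enter this count, so part of the share was fixed. Upstream peaks with such a partner had a lower fold enrichment, at a median of 4.30 (interval 4.07 to 4.46) against 4.60 (4.52 to 4.71), although 62.0% of them and 51.5% of the others had a run of at least 20 bp. The remaining 241 upstream peaks (43.8%) had no partner and did not reach the TSS, and were the only break peak at their promoter. They lay at a median of 285 bp and had a median fold enrichment of 4.50.

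Counted by gene, 480 of 22380 protein-coding genes (2.14%) were the nearest gene of an upstream peak, and 3560 (15.9%) had any Chd1 KO peak with its summit within 1000 bp of a TSS. A pair of upstream peaks was found at 13 genes. At Arid2, a subunit of the PBAF remodeling complex, summits at 609 and 240 bp had fold enrichments of 5.03 and 4.66, and 34 and 31 reads. At Ccdc64 the summits at 659 and 127 bp had 5.41 and 3.60. At Cdc42bpa, a kinase bound by the GTPase Cdc42, those at 593 and 199 bp had 4.51 and 4.38. Cux1, a homeodomain transcription factor, had its pair upstream of different TSSs, with 6.44 at 858 bp from one and 3.44 at 407 bp from the other, and so had the kinase gene Dyrk1a, with 3.49 at 878 bp and 3.58 at 134 bp. Genes with an upstream peak had a median length of 49.7 kb, beside 40.4 kb for genes with any peak near a TSS and 15.4 kb for all protein-coding genes.

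By gene group, the interval of the share lay above the 2.14% of all protein-coding genes for developmental signaling, chromatin, channel, forkhead, kinase and phosphatase and homeobox genes. The share with any Chd1 KO peak within 1000 bp of a TSS, 15.9% over all protein-coding genes, was higher in the same groups, with 36.4% of Wnt and Frizzled, 34.6% of Fgf, Bmp and Tgf-beta, 40.3% of chromatin, 24.2% of channel, 47.6% of forkhead, 37.5% of kinase and phosphatase and 30.6% of homeobox genes. Among groups whose upstream interval included 2.14%, it was above 15.9% as well in Klf, Sp and Zic (51.6%), ubiquitin (32.8%), axon guidance (31.5%) and Hox genes (27.5%). The same held for Sox, Tbx, Pax and Gata (26.0%) and cyclin, CDK and E2f genes (24.7%). Pluripotency factor genes (5 of 31, 16.1%) were near 15.9%. The share was lower in solute carrier (14.1%), Zfp (12.9%), repair (12.1%), ribosomal protein (4.71%) and clustered protocadherin genes (0). Intervals were not computed for these shares with any peak. Each group was defined by gene symbols, with earlier results of these data known, and no set test was run. Among Wnt and Frizzled genes 5 of 55 (9.09%, interval 3.95% to 19.6%) had an upstream peak. They included Tcf7, a transcription factor of the pathway, with a fold enrichment of 4.64 and a run of 36 bp, the ligand Wnt6 with 4.05 and the receptor Fzd5 with 3.86. Among Fgf, Bmp and Tgf-beta genes there were 7 of 81 (8.64%, 4.25% to 16.8%), with the receptors Acvr2b at 4.81 and Bmpr2 at 4.79 and the signal transducer Smad3 at 4.45. All but Bmpr2 of the 7 had summits within 300 bp of the TSS.

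Chromatin modifier and remodeler genes had 11 of 176 (6.25%, interval 3.53% to 10.8%), not counting Arid2, which the symbols that define this group do not take in. After Tet2, the highest were Arid4a with a fold enrichment of 6.14 at 126 bp and Jarid2, a subunit of Polycomb repressive complex 2, with 5.81 at 346 bp. Potassium and calcium channel genes had 8 of 120 (6.67%, 3.42% to 12.6%), led by Kcne1 with 5.02, Kcnd2 with 4.78 and Kcnip4 with 4.54. Forkhead genes had 3 of 42 (7.14%, lower bound of the interval 2.46%), Foxn1 with 4.56, Foxa1 with 4.38 and Foxp4 with 3.94. Protein kinase cascade and phosphatase genes had 11 of 232 (4.74%, 2.67% to 8.29%), led by the phosphatase Dusp16 with 5.96. Homeobox genes outside the Hox clusters had 7 of 147 (4.76%, 2.33% to 9.50%), and after Cux1 the highest were Lmx1a with 5.58 and Satb1 with 5.02. These 7 groups are the ones whose interval lay above 2.14%.

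For the other groups given here the interval included 2.14%. Ubiquitin ligase and deubiquitinase genes had 13 of 372 (3.49%, interval 2.05% to 5.89%), led by Smurf2 with 6.23, Ube2e1 with 6.02 and Usp15 with 5.48. Sox, Tbx, Pax and Gata genes had 3 of 50 (Sox5, Sox4 and Gata4), Klf, Sp and Zic genes 2 of 31 (Klf3 and Zic4), axon guidance genes 3 of 73 (Sema4d, Unc5d and Unc5a), and cyclin, CDK and E2f genes 3 of 73 (Cdk14, E2f7 and Ccne2). Hox genes had 1 of 40, Hoxa13 with 3.93. Solute carrier genes had 6 of 347 (1.73%), led by Slc9a2 with 5.95, and Zfp zinc finger genes 4 of 365 (1.10%, 0.427% to 2.78%), led by Zfp609 with 5.86. No upstream peak was found at 66 genes of double-strand break repair and checkpoints, which allows a share of up to 4.55%, at 85 cytosolic ribosomal protein genes (up to 3.53%), at 31 pluripotency factor genes (up to 9.68%) or at 24 clustered protocadherin genes (up to 12.5%). These limits include 2.14%, so the lists could not show an absence.

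**Figure D5:**
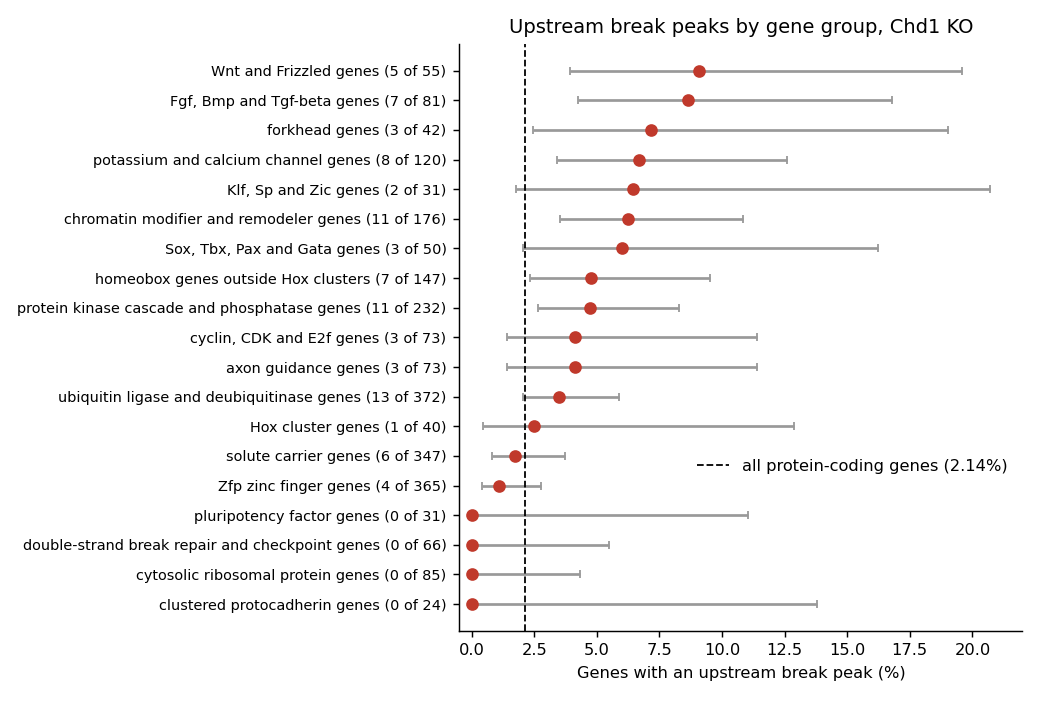
Share of genes in each of 19 groups that were the nearest gene of an upstream break peak in Chd1 KO cells, in %, with Wilson 95% intervals as bars, the counts beside the group names and the 2.14% of all protein-coding genes as a dashed line. Wnt and Frizzled genes had the highest share, 9.09%, and 4 groups had 0.

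The sequence of the upstream stretches also differed between groups. The median GC content between 100 and 1000 bp upstream was 46.0% over all 19787 genes counted, and 3.27% of stretches had a run of at least 20 bp. In the 7 groups whose interval lay above 2.14%, median GC content was between 49.2% (chromatin genes) and 53.8% (Fgf, Bmp and Tgf-beta genes), and stretches with a run made up between 4.24% (channel genes) and 18.5% (Wnt and Frizzled genes). The 4 groups without an upstream peak had a GC content between 35.9% (clustered protocadherin genes) and 46.6% (ribosomal protein genes), and runs in between 0 and 6.67% (pluripotency factor genes) of stretches. Channel genes and repair genes had nearly equal shares of stretches with a run, 4.24% and 4.26%. Klf, Sp and Zic genes had the highest values, 55.7% GC and runs in 23.3%, and Hox genes had 52.0% and 12.8%, while the interval of their shares included 2.14%. The part of this sequence in the shares by group was not tested.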

How the data were processed

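Break peaks were taken from the peak lists deposited by the authors for DSB-seq of Chd1 KO and control ES cells, 1 list per genotype. Reads had been aligned by the authors with Bowtie2 (mm9), filtered on mapping quality and deduplicated by position. Both replicates were then pooled, and MACS2 called peaks at its default q-value cutoff from reads extended to 200 bp. Blacklisted regions were excluded. The deposited fold enrichment is a ratio of reads to local background at the summit within the pooled reads of 1 genotype. To both reads and background 1 was added. The deposited −log10 p-value and −log10 q-value were also computed by the authors within the pooled reads of each genotype, as was the score, which was not used. The deposited summit offset gave the position.

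The number of reads and the local background at the summit were recovered from fold enrichment and p-value, to within 7.25e-05 of the deposited −log10 p-value. Peaks with fewer than 13 reads at the summit were not called. TSSs came from GENCODE M1, and sequence from the mm9 genome with pysam 0.24.0 and samtools 1.23.1. Python 3.11.15, NumPy 2.4.6, pandas 2.3.3, SciPy 1.17.1 and statsmodels 0.14.6 gave Wilson intervals of shares, Newcombe intervals of differences and order-statistic intervals of medians, and Matplotlib 3.10.9 the figures. Scripts were tested on simulated data. A count of 0 is given with the limit of 3 counts of the total.

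The upstream peaks and gene lists were chosen with earlier results of these data known. Genes named are those nearest to the 10 peaks with the highest fold enrichment, the 5 with the most reads, the 5 widest and the 5 with the longest GC run, 3 on each side of each distance limit (not all ties), the first 5 genes by symbol with several upstream peaks, and up to 3 genes per list by fold enrichment. Gm336 was shown as the highest peak with neither a GC run nor a G-quadruplex motif off chromosome 18 and outside UTRs, and the other sequences by the same ranking. 1700071K01Rik was named after its distance to a control peak was seen. Elf2, tied for reads, was named as well. A sequence, its gene and a gene list that these rules select are not reported here. ChIP-seq, signal tracks and expression were not analyzed here.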

Additional observations from a re-analysis of the deposited data

How the results depend on the processing

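Of 134 alternative values, 116 moved by less than their counting interval or, for counts, by less than 1.5 times, and 18 moved by more. The median distance of 207 bp became 238 bp with only the outermost TSS of each gene, 349 bp with a lower limit of 200 bp and 181 bp with an upper limit of 500 bp. With the lower limit of 200 bp, 286 peaks and 248 genes remained, and 27.6% had another peak at the same gene. That share was 15.2% at a fold enrichment of at least 4, 7.19% with peaks under 500 bp apart merged, and 30.0% with the other peak anywhere in the gene. The median fold enrichment was 4.76 at a fold enrichment of at least 4. Median GC content was 79.2% within 50 bp and 74.8% within 200 bp of the summit, 97.1% of peaks had a run of at least 12 bp, and 82.0% had a G-quadruplex motif when loops of up to 12 bases were allowed. 3 alternatives were chosen after seeing the data. Intergenic summits alone left 329 peaks and 296 genes, and a p-value no weaker than the weakest control peak gave a median fold enrichment of 4.63 and another peak at 19.3%. Summits outside the body of their own gene left 383 peaks, with no value outside its counting interval. The share overlapping a control peak was 0 under all alternatives. No paired analysis was possible because peaks had been called on pooled replicates, and for the same reason no replicate could be left out. With 13 reads the fewest at a called summit, weaker sites lie outside these lists.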
